A study of Mus musculus with 2 samples.

Results

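The ATF4 branch of the integrated stress response was followed here through 10 genes, Atf4, Atf5, Ddit3, Trib3, Chac1, Asns, Psat1, Phgdh, Sesn2 and Ddit4, chosen by name. All 10 of 10 were found among the 19505 mouse genes with a named probe set, and all 10 were among the 10162 genes called detected, those whose brighter log2 value reached 5.89, the median of all named probe sets. B16F10, a pigmented mouse melanoma line, had been given a plasmid for NRF3 (1 array) or for GFP (1 array), each with a puromycin resistance vector, and was selected with puromycin. Both stable populations were then kept in forskolin, which activates adenylate cyclase and raises cAMP, for 5 days, so neither group lacked the drug and its own effect cannot be read. The labels do not say which promoter drove the plasmids, which species' NRF3 was used, or whether a population came from 1 clone. Values are log2 expression values made by robust multi-array averaging (RMA). Without replicates no value has an error and no difference a p-value, and each comparison is between these 2 RNA samples.

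In the integrated stress response, kinases that sense stress phosphorylate the translation initiation factor eIF2. General protein synthesis then slows, while the mRNA of ATF4, a basic leucine zipper (bZIP) transcription factor, is translated more through upstream open reading frames in its leader. ATF4 pairs with C/EBP proteins on composite C/EBP-ATF elements and switches on genes of amino acid supply and stress control. Because control of ATF4 itself lies largely in translation and protein stability, the level of its mRNA is no measure of its activity.

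Promoter windows from RefSeq (GRCm38.p6, 250 bases before to 50 after a transcription start) were searched for the C/EBP-ATF element written TGATGNAA, on both strands. It was in the windows of 3 of the 10 genes, Asns, Chac1 and Trib3, and in those of 4.51% of the 27025 genes in the table. The core of the antioxidant response element, the kind of site that cap'n'collar factors such as NRF3 bind with small MAF proteins, was searched as TGACNNNGC on both strands. It was in the windows of Asns, Phgdh and Sesn2, against 14.0% of all genes. No window of Atf4, Atf5, Ddit3, Ddit4 or Psat1 held either run of letters, with both annotated starts searched for Atf5 and Psat1. Asns and Chac1 are shown for their matches and Atf5 and Ddit3 for the highest and the lowest difference, each over the 250 bases before the first start in the table, and Trib3 over 30 bases around its match. All are written 5′ to 3′ on the gene's strand, with matches in capitals.
Asns, chr6:7693210-7693459, minus strand: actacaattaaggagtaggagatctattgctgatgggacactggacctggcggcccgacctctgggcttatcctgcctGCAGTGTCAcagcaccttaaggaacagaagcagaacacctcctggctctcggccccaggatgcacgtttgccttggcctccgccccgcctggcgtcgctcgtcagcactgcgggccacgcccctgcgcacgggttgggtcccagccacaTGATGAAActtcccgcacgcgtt
Chac1, chr2:119350992-119351241, plus strand: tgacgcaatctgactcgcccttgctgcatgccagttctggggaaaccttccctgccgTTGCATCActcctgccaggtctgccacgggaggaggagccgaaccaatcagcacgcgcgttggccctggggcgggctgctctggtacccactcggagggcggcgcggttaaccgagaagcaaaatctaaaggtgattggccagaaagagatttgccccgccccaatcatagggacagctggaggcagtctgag
Atf5, chr7:44816659-44816908, minus strand: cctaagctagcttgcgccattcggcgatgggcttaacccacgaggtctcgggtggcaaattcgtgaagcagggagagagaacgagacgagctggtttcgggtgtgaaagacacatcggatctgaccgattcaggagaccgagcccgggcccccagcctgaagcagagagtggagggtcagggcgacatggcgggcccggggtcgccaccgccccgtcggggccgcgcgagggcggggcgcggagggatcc
Ddit3, chr10:127290543-127290792, plus strand: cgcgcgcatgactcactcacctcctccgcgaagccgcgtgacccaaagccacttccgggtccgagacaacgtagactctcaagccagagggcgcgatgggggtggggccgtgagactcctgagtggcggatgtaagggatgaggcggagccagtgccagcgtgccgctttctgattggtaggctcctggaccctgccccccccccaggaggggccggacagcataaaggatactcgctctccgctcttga
Trib3, chr2:152344028-152344057, minus strand: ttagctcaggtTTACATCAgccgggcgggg
In Asns the capitals nearer the start mark the C/EBP-ATF element, with 15 bases between it and the start, and the other capitals an antioxidant element core on the opposite strand. In Chac1 the capitals mark a C/EBP-ATF element on the opposite strand, with 185 bases between it and the start. In Trib3 the match is also on the opposite strand and begins at base 15 of the transcript. The 2 motifs do not overlap in any window shown. A match is a run of letters and not a bound site.

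**Figure D1:**
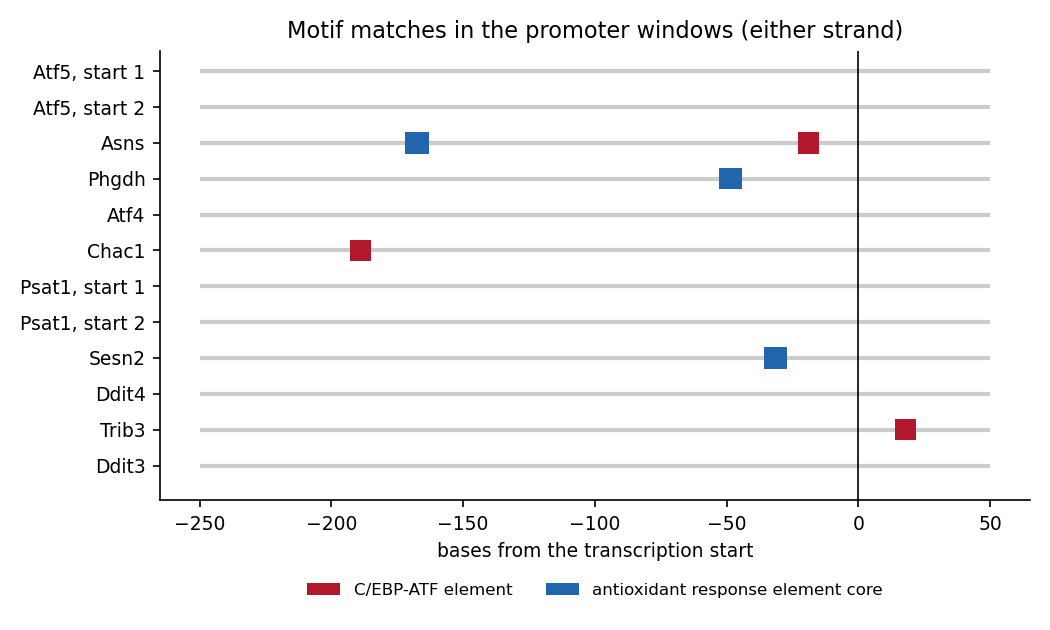
Matches to the C/EBP-ATF element (red) and to the antioxidant response element core (blue), on either strand, in the promoter windows of the 10 genes. The x axis is the distance in bases from the transcription start, and each grey line is 1 window of 300 bases. The C/EBP-ATF element was found for Asns, Chac1 and Trib3 only, of these 10 genes.

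The branch did not move as a block between the NRF3 and the GFP cells. Atf5 was higher in the NRF3 cells, Ddit3 and Trib3 were lower, and the other 7 genes lay within 1.5-fold. Thus 1 of 10 was at least 1.5-fold higher, where 17.0% of all detected genes were, and 2 of 10 were at least 1.5-fold lower, where 23.6% of all detected genes were. Both counts are near these background shares. The median log2 difference, NRF3 minus GFP, was -0.11 over the 10 genes and -0.07 over all detected genes, whose quartiles were -0.55 and 0.39. By a rule of 2-fold, 1 of the 10 was higher (background 6.75%) and 0 were lower (background 11.0%). Differences in these bulk RNA samples cannot tell fewer cells that express a gene from less RNA per cell.

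**Figure D2:**
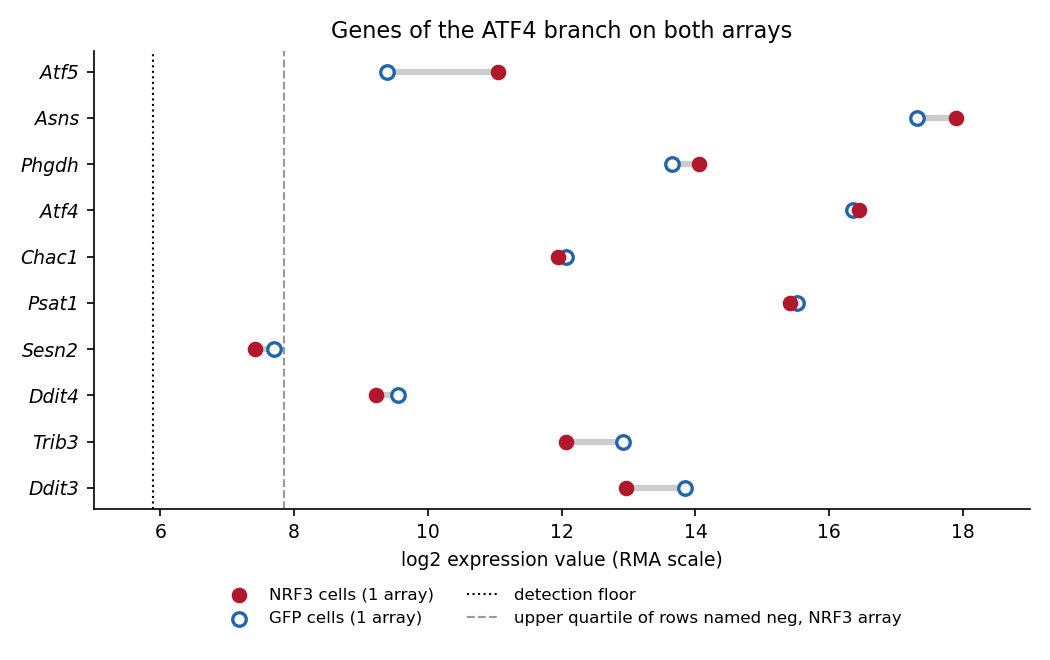
Log2 expression value (RMA scale, x axis) of each gene of the branch in NRF3 cells (filled red, 1 array) and GFP cells (open blue, 1 array), ordered from the highest to the lowest difference. The dotted line is the detection floor of 5.89 and the dashed line the upper quartile, 7.85, of the control rows named neg on the NRF3 array. Atf5 is the widest pair toward higher values in NRF3 cells, Ddit3 and Trib3 are the widest toward lower ones, and only Sesn2 lies below the dashed line.

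Among the transcription factors, the 3 mRNAs went 3 ways. Atf4 (NCBI gene 11911, chromosome 15) had a log2 value of 16.4 in NRF3 cells and 16.4 in GFP cells, a difference of 0.08. Its level was thus nearly the same on both arrays. Atf5 (NCBI gene 107503, chromosome 7) encodes a bZIP factor close to ATF4, whose mRNA is likewise translated more under eIF2 phosphorylation and which also acts in the mitochondrial stress response. Atf5 lay at 11.0 in NRF3 cells and 9.39 in GFP cells, a difference of 1.65 or 3.14-fold. Only 1.45% of the detected genes had a larger difference. Both values were well above the upper quartiles, 7.85 on the NRF3 array and 7.52 on the GFP array, of the control rows whose names hold neg, which serve here as a rough mark of background. Ddit3 (NCBI gene 13198, chromosome 10) encodes CHOP, a C/EBP-type factor that ATF4 induces and that drives cell death in long stress. Ddit3 lay at 13.0 in NRF3 cells and 13.8 in GFP cells, a difference of -0.89, so the NRF3 value was 0.541 times the GFP value. It was the one gene of the branch with 2 probe sets, and the dimmer set gave 10.3 in NRF3 cells and 11.4 in GFP cells, a difference of -1.06. Both probe sets therefore put Ddit3 lower in the NRF3 cells.

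Trib3 (NCBI gene 228775, chromosome 2) encodes a pseudokinase that ATF4 and CHOP induce and that restrains ATF4 in return. It lay at 12.1 in NRF3 cells and 12.9 in GFP cells, a difference of -0.85. This was close to the difference of Ddit3, and 14.5% of all detected genes had a lower one. Chac1 (NCBI gene 69065, chromosome 2), a glutathione-degrading enzyme and ATF4 target, lay at 12.0 in NRF3 cells and 12.1 in GFP cells, a difference of -0.11. Trib3 and Chac1, which are both on chromosome 2 and both hold the C/EBP-ATF element in their windows, thus did not differ by the same amount.

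Sesn2 and Ddit4 encode brakes on the growth kinase complex mTORC1. Sestrin 2, from Sesn2 (NCBI gene 230784, chromosome 4), senses leucine and acts on the amino acid arm, and REDD1, from Ddit4 (NCBI gene 74747, chromosome 10), acts through the TSC complex and is also induced by hypoxia and glucocorticoids. Ddit4 lay at 9.22 in NRF3 cells and 9.56 in GFP cells, a difference of -0.34. For Sesn2 the values were 7.42 in NRF3 cells and 7.70 in GFP cells, a difference of -0.28. Both were slightly lower on the NRF3 array and within 1.5-fold. The NRF3 value of Sesn2 lay under the upper quartile of the control rows named neg, 7.85, so its difference may be set by background.

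Of the biosynthetic enzymes among the genes of the branch, Asns and Phgdh lay above their GFP values and Psat1 slightly below, all within 1.5-fold. Asns (NCBI gene 27053, chromosome 6), the asparagine synthetase and the classic target of the C/EBP-ATF element, lay at 17.9 in NRF3 cells and 17.3 in GFP cells. Its difference of 0.58, or 1.496-fold, fell just short of the 1.5-fold rule. Asns passed that rule after each of 3 other scalings, with 0.75 after quantile normalization, 0.66 after median centring and 0.67 after subtraction of an intensity trend, but lay farther under it, at 0.43, relative to its chromosomal neighbours. Asns and Atf4 both lay above 16, where differences this size were less common. Of the 165 detected genes with a mean above 16, 9.09% were at least 1.5-fold higher in NRF3 cells and 16.4% as much lower.

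Serine is made from a glycolytic intermediate in 3 steps, by the enzymes of Phgdh, Psat1 and Psph in that order. Phgdh (NCBI gene 236539, chromosome 3), the dehydrogenase of the entry step, lay at 14.0 in NRF3 cells and 13.6 in GFP cells, a difference of 0.40. Psat1 (NCBI gene 107272, chromosome 19), the aminotransferase, lay at 15.4 in NRF3 cells and 15.5 in GFP cells, a difference of -0.11. Psph, the phosphatase of the last step, lay at 14.2 in NRF3 cells and 12.9 in GFP cells, a difference of 1.24 or 2.37-fold. Only the last step therefore passed the 1.5-fold rule.

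Whole chromosome segments differed between these arrays, with a median of -0.51 over 552 detected genes of chromosome 1 and of 0.56 over 549 of chromosome 8. None of the 10 genes lies on either chromosome. Each was set beside the 25 nearest detected genes on both sides (40 in all for Asns, near a chromosome end). The neighbours of Atf5 had a median of 0.12 and those of Ddit3 and Trib3 medians of -0.17 and -0.15, and relative to these medians the 3 genes stayed past 1.5-fold, at 1.53, -0.72 and -0.70. The lowest neighbour median was that around Atf4, at -0.46, against which Atf4 itself was higher by 0.54. Asns and Phgdh lay above their neighbours' medians by 0.43 and 0.46. Ddit4 differed by -0.04 from its neighbours' median of -0.30. Relative to their neighbours, Chac1, Psat1 and Sesn2 turned from slightly lower to slightly higher, at 0.13, 0.12 and 0.09.

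**Figure D3:**
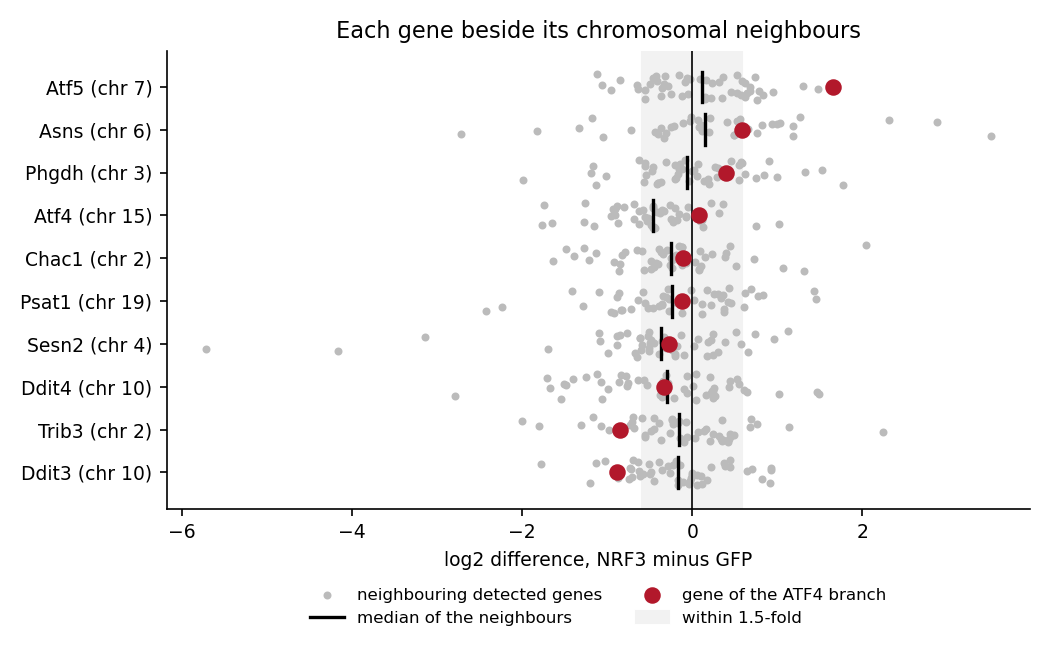
Log2 difference, NRF3 minus GFP (x axis), of each gene of the branch (red) beside its nearest detected neighbours on the same chromosome (grey, spread vertically by their order) and their median (black line). The shaded band is within 1.5-fold. Atf5 lies to the right of most of its neighbours, and Ddit3 and Trib3 to the left of most of theirs.

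Upstream of ATF4 lie the genes that set eIF2 phosphorylation. A list of 14 detected genes held those for eIF2 kinases, eIF2 phosphatase subunits, eIF2 and its exchange factor eIF2B, with Impact and Nck1 added. The 1.5-fold rule put 2 of them higher and 3 lower, and their median difference was -0.16. These counts are 14.3% and 21.4% of the list, near the background of 17.0% and 23.6%, and relative to their neighbours 1 gene was lower in place of 3. Eif2ak3, which encodes PERK, the kinase of the endoplasmic reticulum, lay at 11.5 in NRF3 cells and 10.8 in GFP cells, a difference of 0.74. Its 3 sister kinases differed less, with 0.38 for Eif2ak1 (HRI), 0.18 for Eif2ak2 (PKR) and -0.13 for Eif2ak4 (GCN2). Impact, a protein that holds GCN2 back, differed by 0.86 and was, with Eif2ak3, 1 of the 2 higher genes. The eIF2B subunit genes Eif2b3 and Eif2b5 differed by -0.79 and -0.77, and the NRF3 value of Eif2b5, at 7.15, was under the upper quartile of control rows. Ppp1r15b, the constitutive eIF2 phosphatase subunit, differed by -0.69, as did its neighbours on chromosome 1, with a median of -0.68. Ppp1r15a, the stress-induced subunit GADD34 and itself an ATF4 target, was under the detection floor on both arrays. It lay at 5.888 in NRF3 cells, just short of the floor of 5.891, and at 5.42 in GFP cells.

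Of 12 detected bZIP partners and related factors of ATF4, Nupr1 included, 3 passed the 1.5-fold rule upward and 2 downward. The median difference was 0.04. These counts stood beside background shares of 17.0% higher and 23.6% lower, and the difference from them was not tested. Cebpg, a C/EBP partner of ATF4, lay at 10.7 in NRF3 cells and 9.95 in GFP cells, a difference of 0.77, and Atf2 also differed by 0.77. Xbp1, the factor of the IRE1 arm of the unfolded protein response, differed by 0.72. Atf3, another ATF4 target and an immediate stress gene, lay at 11.0 in NRF3 cells and 13.1 in GFP cells, a difference of -2.14. Atf3 was thus farther below its GFP value than Ddit3 and Trib3 were, and it lies on chromosome 1, where its neighbours had a median of -0.61. Atf6b differed by -0.60. Cebpb, the other main partner of ATF4, differed by 0.22, with both values under the upper quartiles of the control rows.

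Of the 5 detected paralogs of these genes, 3 were at least 1.5-fold lower and 1 as much higher, beside background shares of 23.6% and 17.0%. After median centring 2 were lower and 2 higher, and with a higher floor, at the 75th percentile, 0 were lower and 0 higher. Chac2, a slower enzyme of the Chac1 kind, lay at 7.53 in NRF3 cells and 9.08 in GFP cells, a difference of -1.54. Sesn1, a sestrin under p53 control, lay at 7.37 in NRF3 cells and 8.34 in GFP cells, a difference of -0.97. Both NRF3 values lay under the upper quartile of the control rows, so these sizes may depend on background. Sesn3, a sestrin under FOXO control, differed by 0.52. Trib2, a relative of Trib3, differed by -0.65 and Ddit4l, a relative of Ddit4, by 1.06, but all their values lay below the upper quartiles of the control rows. The NRF3 value of Trib2, 5.60, and the GFP value of Ddit4l, 5.20, were also under the detection floor. Each of these genes was thus called detected only through the array where it was higher. Trib1 was not detected.

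Of 13 detected amino acid and one-carbon enzymes beyond the 10 genes, 10 had a difference below 0, as did 54.2% of all detected genes, and the median was -0.40. Past 1.5-fold were 1 higher gene, Psph, and 4 lower ones, beside background shares of 17.0% and 23.6%. Relative to their chromosomal neighbours the median was -0.14, and 2 were lower in place of 4. Mthfd1, the cytosolic folate enzyme, lay at 8.32 in NRF3 cells and 10.2 in GFP cells, a difference of -1.83. Aldh1l2 and Mthfd2, which work in the mitochondrial folate pathway and are known ATF4 targets, differed by -1.73 and -0.68. Psph and these 3 folate genes thus differed in opposite directions. Shmt1 differed by -0.67 from values below the upper quartiles of the control rows. Gpt2, an alanine aminotransferase on chromosome 8, was the second highest, at 0.47, but its neighbours had a median of 0.75, so relative to them it lay at -0.29.

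The aminoacyl-tRNA synthetases charge tRNAs with amino acids, and many of their cytosolic genes are ATF4 targets. Of 11 detected synthetase genes reported as such, 0 passed the 1.5-fold rule upward and 1 downward, and the median difference was -0.45. Eprs, on chromosome 1, lay at 15.0 in NRF3 cells and 16.1 in GFP cells, a difference of -1.13, where its neighbours had a median of -0.59. Yars differed by -0.57, Iars by 0.22 and Sars by 0.44. The 7 other cytosolic synthetase genes had a median of 0.36, with 3 higher and 1 lower. For both groups the background shares were 17.0% higher and 23.6% lower. Kars and Farsa, both on chromosome 8, differed by 0.95 and 0.74, beside neighbours with medians of 0.86 and 0.57, and Rars by 0.73. Vars was the lowest of these, at -0.86, and Hars lay at 0.08. The difference between the synthetase groups was not tested, and without chromosomes 1 and 8 the ATF4-target group had 0 lower genes in place of 1 and the other group 1 higher gene in place of 3.

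Among amino acid transporter genes that ATF4 is reported to induce, 2 of 8 detected passed the 1.5-fold rule upward and 1 downward (median 0.07). Here too the background shares were 17.0% higher and 23.6% lower. The genes of both chains of the cystine importer were the 2 higher ones. Slc7a11, its specific chain, lay at 13.9 in NRF3 cells and 11.1 in GFP cells, a difference of 2.85 or 7.22-fold, and Slc3a2, the chain it shares with other transporters, at 17.6 in NRF3 cells and 16.8 in GFP cells, a difference of 0.74. Slc1a4, a transporter of alanine and serine, lay at 8.14 in NRF3 cells and 9.91 in GFP cells, a difference of -1.77. Slc1a5, the glutamine transporter, differed by -0.31. Slc7a11 is also a known target of NRF2, so it does not report on ATF4 alone.

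Other genes reported as ATF4 or CHOP targets went both ways, with 4 higher and 4 lower among 13 detected (median -0.15). Vldlr, a lipoprotein receptor, lay at 7.86 in NRF3 cells and 5.94 in GFP cells, a GFP value as low as the control rows. Herpud1, which helps clear misfolded proteins from the endoplasmic reticulum, lay at 15.5 in NRF3 cells and 13.8 in GFP cells, a difference of 1.73 beside neighbours on chromosome 8 with a median of 0.53. Eif4ebp1, a brake on cap-dependent translation on the same chromosome, differed by 0.98, and its neighbours by a median of 0.89. Bcl2l11, which encodes the death factor BIM, lay at 4.78 in NRF3 cells and 6.75 in GFP cells, and the NRF3 value was under the detection floor. Both Bcl2l11 values lay under the upper quartiles of the control rows, so this difference may depend on background. Ddr2, on chromosome 1, lay at 11.9 in NRF3 cells and 12.9 in GFP cells. The lists of synthetases, transporters and other genes reported as targets were joined with that of amino acid and one-carbon enzymes. The enzyme list was named by pathway, so not all of its genes need be targets. With each gene counted once, the 45 detected genes of these 4 lists had 7 higher (15.6%), 10 lower (22.2%) and a median of -0.31. Those shares are near the 17.0% and 23.6% of all detected genes.

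The mitochondrial stress genes beside which ATF5 is usually discussed were not higher where Atf5 was. Among 10 detected, none passed the 1.5-fold rule upward and 4 did so downward (median -0.17), beside background shares of 17.0% and 23.6%. Relative to their neighbours 2 were lower in place of 4. Htra2, a protease of the intermembrane space, lay at 11.9 in NRF3 cells and 13.5 in GFP cells, a difference of -1.56. This was the lowest of them. Dele1, which relays mitochondrial stress to HRI, differed by -0.89 and Hspd1, on chromosome 1, by -0.80. Oma1, the protease that cleaves DELE1, differed by -0.70, with an NRF3 value of 7.79 under the upper quartile of the control rows. Clpp and Dnaja3 lay at -0.02 and 0.10.

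Targets of the other arms of the unfolded protein response, which run through ATF6 and XBP1, went one way. All 17 of 17 detected genes had a difference above 0, with a median of 0.85, where 45.8% of all detected genes lay above 0. The 1.5-fold rule was passed upward by 9 and downward by 0, beside background shares of 17.0% and 23.6%. Hyou1, a chaperone of the endoplasmic reticulum, lay at 15.2 in NRF3 cells and 13.4 in GFP cells, a difference of 1.81. Dnajb9, a co-chaperone and XBP1 target, lay at 13.0 in NRF3 cells and 11.5 in GFP cells, a difference of 1.47. Hsp90b1 and Dnajc3 were the lowest, at 0.16 and 0.06. Hspa5, the chaperone BiP, differed by 0.50. Against 9 of 17 genes in this list, 1 of 10 in the ATF4 branch was higher, and the difference between the groups was not tested. The list of ATF6 and XBP1 targets was chosen with earlier results of these data known.

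**Figure D4:**
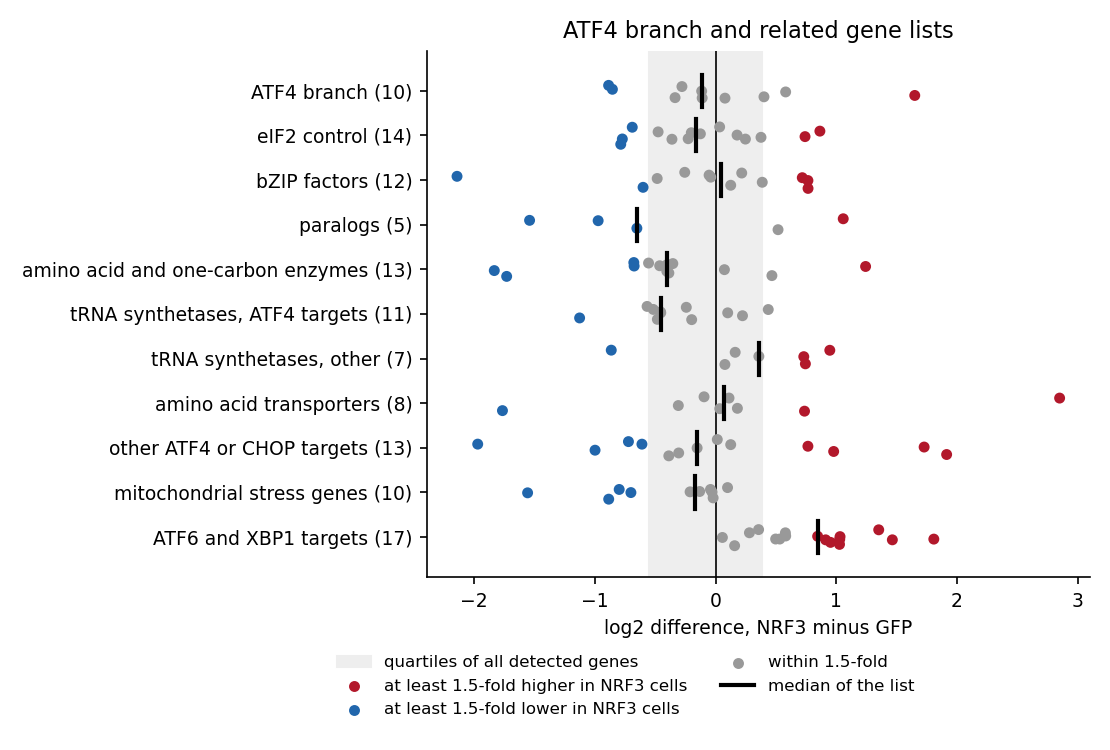
Log2 difference, NRF3 minus GFP (x axis), of the detected genes of the ATF4 branch and of related lists, with the number detected in brackets. Red points were at least 1.5-fold higher and blue points at least 1.5-fold lower in NRF3 cells, black lines are list medians, and the shaded band spans the quartiles of all detected genes. The medians run from -0.65 for the 5 paralogs to 0.85 for the ATF6 and XBP1 targets, and the ATF4 branch lies at -0.11.

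The promoter windows of these lists were searched as well. The endoplasmic reticulum stress element, CCAAT and CCACG with 9 bases between them on either strand, was in the windows of 7 of 14 ATF6 and XBP1 targets with a window, of 0 of the 10 genes of the ATF4 branch, and of 0.137% of all genes. The C/EBP-ATF element was in 0 of those 14 and in 4 of 7 ATF4-target synthetase genes, Gars, Iars, Tars and Yars. Over all genes its share was 4.51%, so 0 of 14 is near that share. The antioxidant element core was in 4 of those 14, Calr, Pdia3, Sdf2l1 and Sec24d, and in 2 of those 7, Iars and Mars1. Its share over all genes was 14.0%. Of the 8387 detected genes with a window, 226 held the C/EBP-ATF element and had a median difference of -0.09, with 20.4% at least 1.5-fold higher and 18.1% lower. The 8161 without it had a median of -0.08, with 16.7% higher and 23.8% lower. The antioxidant element core was held by 1387 detected genes, with a median of -0.03, 18.9% higher and 22.5% lower. The 7000 without that core had a median of -0.09, with 16.3% higher and 23.8% lower. The endoplasmic reticulum stress element was held by 18 detected genes, with a median of 0.27, 16.7% at least 1.5-fold higher and 11.1% lower. The 8369 without it had a median of -0.08, with 16.8% higher and 23.6% lower. Among the 18 were the 7 ATF6 and XBP1 targets counted above, so part of these values repeats that list. This element was chosen after the values of the list were seen. These values are descriptions and were not tested. In the branch itself, Asns, Chac1 and Trib3 hold the C/EBP-ATF element and differed by 0.58, -0.11 and -0.85.

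The labels were checked on the same arrays. Nfe2l3, which encodes NRF3, had a log2 value of 10.1 in NRF3 cells and 6.04 in GFP cells, a GFP value under the median of the control rows, 6.12. All 7 melanocyte markers (Tyr, Tyrp1, Dct, Pmel, Mlana, Mitf and Sox10) were detected, between 13.1 and 18.9 in NRF3 cells and between 11.7 and 18.9 in GFP cells. Of 4 leukocyte markers, 6 of fibroblasts and endothelium and 6 of epithelium, 0 were detected, and the highest values were 5.67 in NRF3 cells and 5.54 in GFP cells.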

How the data were processed

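The deposited values are log2 expression values for 28846 rows on 2 Affymetrix arrays, made by the authors with Affymetrix Expression Console and RMA, per the submitters' processing notes. Version, settings and genome build are not stated there. The highest log2 values deposited, 19.7 and 19.8, exceed 16, the limit of a 16-bit scanner reading, so folds are folds on the deposited scale. Arrays give no depth, and their number limits the precision.

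Of these rows, 19572 carried 1 gene symbol in the platform annotation, and all matched RefSeq (GRCm38.p6) by gene number. Where a gene had more than 1 probe set (55 genes), that of highest mean stood for it. A gene was called detected when its brighter value reached 5.89, the median of all values of named probe sets. This floor is no measured background, since 66.5% of the 5222 control rows named neg reached it. Their upper quartiles were 7.85 on the NRF3 array and 7.52 on the GFP array.

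Differences are NRF3 minus GFP, with a size rule of 1.5-fold and no test. The genes, lists and alternatives were chosen with earlier results of these data known. In each list the 2 highest and 2 lowest detected genes were named, with all paralogs. Other genes named (such as Ppp1r15b, Xbp1, Eif2ak1, Eif2ak2, Eif2ak4, Cebpb, Mthfd2, Shmt1, Rars, Eif4ebp1, Hspd1, Oma1, Hspa5 and Ppp1r15a) were chosen after their values were seen, as was the endoplasmic reticulum stress element. Alternatives were quantile normalization, median centring, a lowess trend (span 0.3), the mean over probe sets, and a floor at the 75th percentile or none. Further ones were subtraction of the median of 25 neighbours a side, and a looser (1.25-fold) and a stricter (2-fold) size rule. The steps were tested on simulated data. Python 3.11.15, pandas 2.3.3 and statsmodels 0.14.6 were used.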

Additional observations from a re-analysis of the deposited data

How the results depend on the processing

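No paired analysis was possible because each group had 1 array. Atf5 stayed at least 1.5-fold higher and Ddit3 and Trib3 at least 1.5-fold lower under all alternatives run, with ranges of 1.53 to 1.75, -1.06 to -0.72 and -0.85 to -0.70. The count of genes of the branch at least 1.5-fold higher was 1, and 2 after quantile normalization, median centring or subtraction of the lowess trend, the added gene being Asns; it was 3 under the looser fold rule. The count lower was 2, and 3 under the looser rule and 0 under a fold rule of 2. The median over the 10 genes was -0.11, and 0.13 relative to the median of neighbours. Chac1, Psat1 and Sesn2 changed sign under that subtraction alone, and Sesn2 was not detected under the higher floor. After each of the 3 other scalings Atf6b lay within 1.5-fold and Sesn3 passed it. Across all detected genes the shares higher and lower were 17.0% and 23.6% as deposited and 20.9% and 19.9% after quantile normalization. The median of the paralogs, -0.65, became 0.52 under the higher floor, at the 75th percentile, where 1 of the 5 genes, Sesn3, was left. The median of the ATF6 and XBP1 targets ranged from 0.71 to 0.97, and that of the ATF4-target synthetases from -0.45 to -0.24. With neighbours subtracted, the other ATF4 or CHOP targets had 2 higher and 2 lower genes in place of 4 and 4 and a median of 0.04.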
